A study of Arabidopsis thaliana with 12 samples.

Results

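Class III peroxidases are a large plant family of secreted heme enzymes. Of 60 listed loci of the family, 54 were each named alone by a probe set of the array and are described here, out of 16548 genes measured that way. AT1G05240, AT1G05250, AT1G14540, AT5G22410, AT5G42180 and AT5G67400 were not analysed here. Where a gene had several probe sets, the brightest on average was to be taken, but every peroxidase had a single probe set. Transcripts were measured in entire Arabidopsis thaliana roots of 3 lines, each carrying a Dof transcription factor gene in ER8, a vector that is switched on by an estrogen. The genotypes are given as ER8Dof1.1/S32/Col, ER8Dof2.2/SUC2p::GFP-GUS and ER8PEAR2/SUC2p::GFP-GUS. SUC2p is the promoter of a sucrose transporter gene of phloem companion cells, and the labels do not say in which cells the ER8 transgenes were expressed. Seedlings 68 h old, grown in continuous light at 23 C, were moved for 16 h to plates without estriol, called mock, or with estriol (an estrogen) at 10 µM. The 6 groups of line and treatment had 2 biological replicates apiece, on arrays of their own.

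Class III peroxidases use hydrogen peroxide to oxidise phenolic compounds, and they can also produce reactive oxygen. In the cell wall they couple lignin precursors and cross-link structural proteins such as extensins, which stiffens the wall, while the radicals that some of them form can loosen it. In roots, members of the family are known from growing root hairs, from the Casparian strip of the endodermis, from lignifying xylem, and from the zone where cells stop dividing and start to elongate.

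Levels are log2 signals, so that a difference of 1 is a 2-fold change, and they are not compared between genes. A change is estriol minus mock within a line. It is given with the standard error of a limma model over all 12 arrays, and a gene rose or fell where its p, adjusted over all 16548 genes of the comparison by the Benjamini-Hochberg method, was under 0.05. Arrays of a group correlated at 0.988 to 0.995 over the whole table, and the small number of arrays limits the precision. The DOF2.2 transcript (AT2G28810) changed by 3.04 ± 0.27 (adjusted p = 1.81e-05) in its own line, but also by 2.98 with Dof1.1 and 2.04 with PEAR2. The PEAR2 transcript (AT5G02460) changed by 4.38 ± 0.20 (adjusted p = 8.68e-07) in its own line, 1.02 ± 0.20 (adjusted p = 0.00293) with Dof1.1 and 0.13 ± 0.20 (adjusted p = 0.698) with Dof2.2. The Dof1.1 transcript was not analysed here. Every line carried a Dof transgene, and estriol on roots with none was not analysed here, so effects of the transgene and of estriol itself cannot be told apart. In whole roots, fewer cells of a type and less RNA per cell cannot be told apart either.

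The comparison of induced with uninduced roots asks which transcripts change when a Dof transgene is switched on. In each line more peroxidases fell than rose, and the falls reached the larger sizes. On Dof1.1 induction 28 of the 54 peroxidases fell and 9 rose, where 16.2% of all genes fell and 17.8% rose. In the Dof2.2 line 31 fell and 11 rose, against 13.6% and 14.8% of all genes. In the PEAR2 line 23 fell and 9 rose, against 10.4% and 8.33% of all genes. The median change of the 54 peroxidases was -0.90 for Dof1.1, -0.80 for Dof2.2 and -0.68 for PEAR2, where the medians of all genes were 0.11, 0.10 and 0.03.

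The falls were mostly large. Of the 54 peroxidases, 27 fell at least 2-fold for Dof1.1, 26 for Dof2.2 and 20 for PEAR2, where 11.5%, 9.66% and 6.83% of all genes did. Most falls over all genes were of this size too. They numbered 1905 of 2683 falls for Dof1.1, 1598 of 2252 for Dof2.2 and 1131 of 1727 for PEAR2. Rises of at least 2-fold were made by 7, 10 and 8 peroxidases, against 6.96%, 5.61% and 3.91% of all genes. Both estriol arrays lay below both mock arrays for 37 peroxidases with Dof1.1, 32 with Dof2.2 and 36 with PEAR2, where this held for 25.7%, 23.6% and 28.2% of all genes. They lay above both mock arrays for 11, 14 and 12 peroxidases, against 37.4%, 37.7% and 33.6% of all genes.

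**Figure D1:**
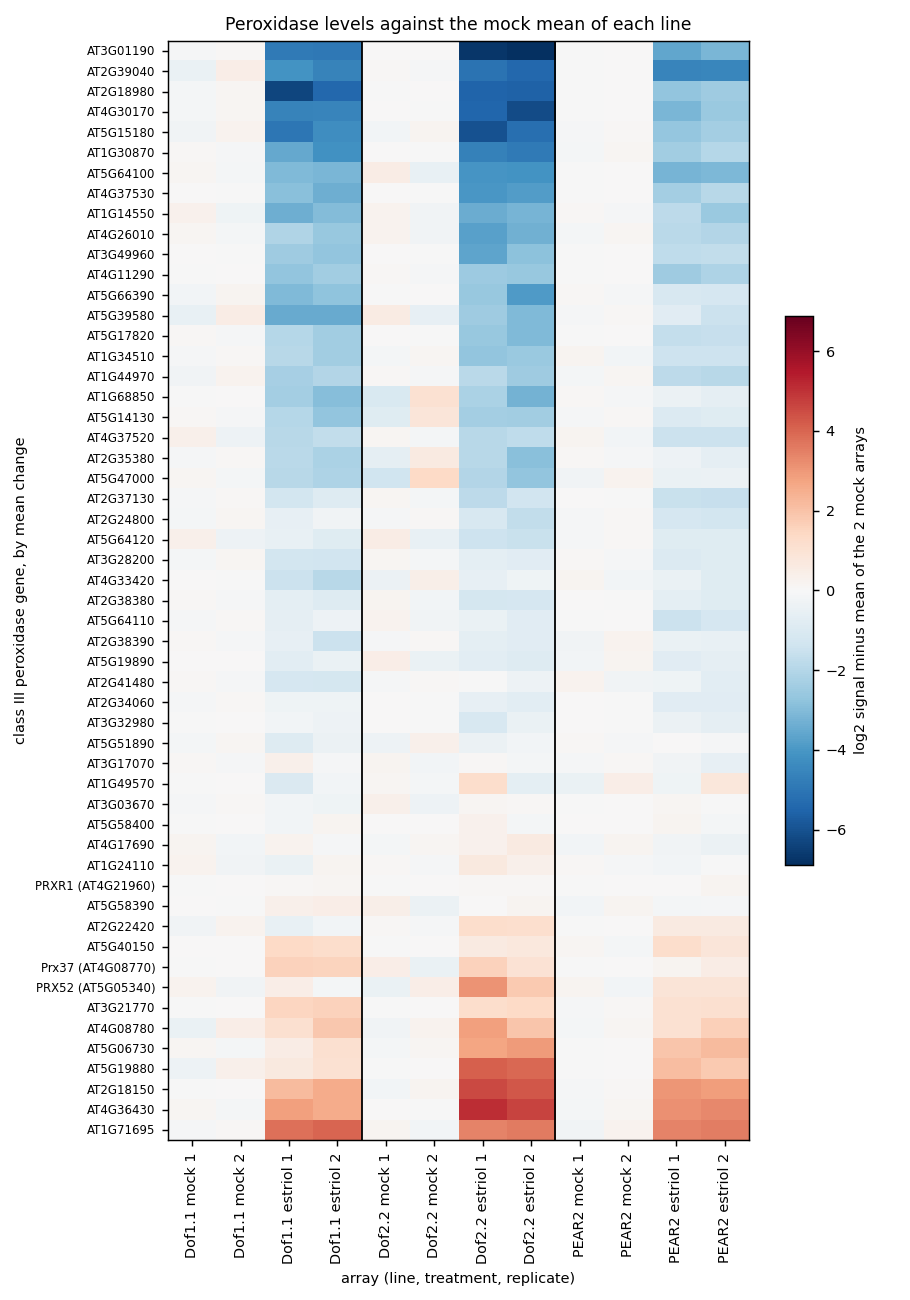
Log2 signal of each of the 54 peroxidases (rows) on each of the 12 arrays (columns), minus the mean of the 2 mock arrays of the same line; blue is lower, red higher, and black lines separate the 3 lines. Most genes are blue on the estriol arrays, from AT3G01190 at the top down to a middle band with little colour, and a smaller block ending in AT1G71695 is red in all 3 lines.

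The lines shared most of these calls. A total of 20 peroxidases fell in all 3 lines, where 8.79% of all genes did, and 8 rose in all 3 lines, where 6.06% of all genes did. None was called in opposite directions in different lines, which 0.242% of all genes were. Another 14 fell in some lines and rose in none, of which AT1G68850, AT2G35380, AT5G14130, AT5G39580 and AT5G47000 fell in both the Dof1.1 and the Dof2.2 line and did not pass in the PEAR2 line. Each of the 23 that fell in the PEAR2 line also fell in the Dof2.2 line, and 87% of them fell in the Dof1.1 line. Over all genes, 1454 of the 1727 that fell in the PEAR2 line fell in all 3 lines, so such sharing was not particular to peroxidases. Each of the 9 that rose in the Dof1.1 line rose in the Dof2.2 line, and 8 of them rose in all 3 lines. Of all 2940 genes that rose in the Dof1.1 line, 1002 rose in all 3 lines. Other overlaps of calls were not counted over all genes. Across 22 other fits of the data, 18 of the 20 shared falls and 4 of the 8 shared rises kept their call in every line and every fit; the exceptions are named below with their values. With a change of at least 2-fold asked for as well, these numbers were 17 and 4.

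**Figure D2:**
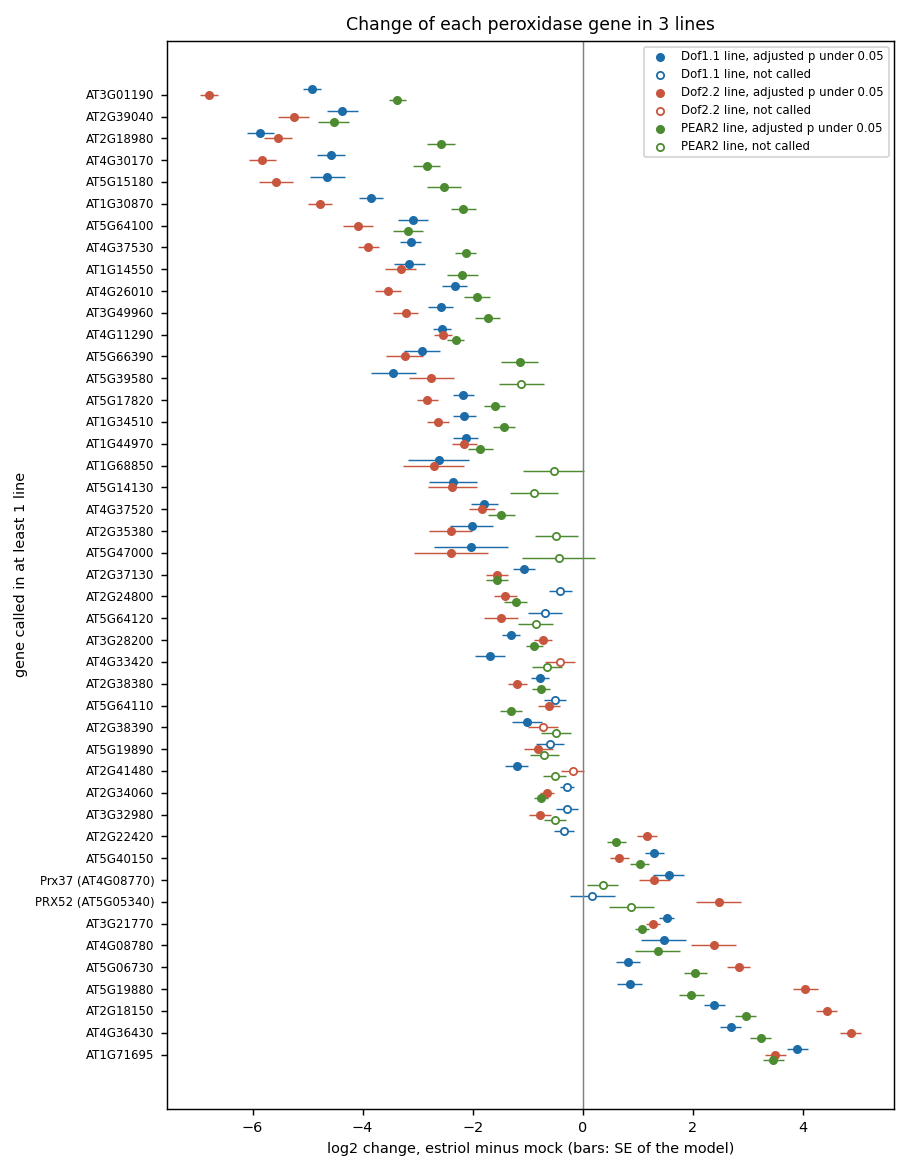
Change with estriol (log2, horizontal axis, bars are standard errors of the model, 2 arrays a group) of the 45 peroxidases called in at least 1 line, with Dof1.1, Dof2.2 and PEAR2 in different colours; filled points passed the threshold of 0.05 and open points did not. The upper, falling genes reach -6.79 (AT3G01190, Dof2.2 line) and the lower, rising genes 4.87 (AT4G36430, Dof2.2 line).

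Root hair peroxidases fell, 3 of 3 measured in both the Dof1.1 and the Dof2.2 line and 2 of 3 in the PEAR2 line. Of all genes, 16.2% fell with Dof1.1, 13.6% with Dof2.2 and 10.4% with PEAR2. Of 6 listed peroxidases known from root hairs, AT4G26010, AT5G39580 and AT5G64100 were measured, and the remaining 3 were not analysed here. In the Dof1.1 line AT5G64100 read 9.05 and 8.75 with mock and 5.85 and 5.77 with estriol. Those of the Dof2.2 line read 9.51 and 8.49 with mock and 4.96 and 4.86 with estriol, and those of the PEAR2 line 10.13 and 10.19 with mock and 6.94 and 7.05 with estriol. The estriol arrays lay below the mock arrays in each line. AT5G64100 fell by 3.09 ± 0.27 (adjusted p = 1.24e-05) for Dof1.1, 4.09 ± 0.27 (adjusted p = 2.28e-06) for Dof2.2 and 3.17 ± 0.27 (adjusted p = 2.72e-05) for PEAR2. AT4G26010 read 10.36 and 10.07 with mock and 8.13 and 7.63 with estriol in the Dof1.1 line. Dof2.2 arrays read 10.55 and 10.08 with mock and 6.56 and 6.98 with estriol, and PEAR2 arrays 10.76 and 10.98 with mock and 9.03 and 8.87 with estriol. The groups did not overlap in any line. AT4G26010 fell by 2.33 ± 0.23 (adjusted p = 3.11e-05) for Dof1.1, 3.54 ± 0.23 (adjusted p = 2.3e-06) for Dof2.2 and 1.92 ± 0.23 (adjusted p = 0.000269) for PEAR2.

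AT5G39580 fell in both the Dof1.1 and the Dof2.2 line. Single arrays of AT5G39580 read 6.63 and 7.60 with mock and 3.67 and 3.67 with estriol in the Dof1.1 line. Readings were 7.06 and 5.94 with mock and 4.06 and 3.45 with estriol for Dof2.2, and 7.53 and 7.72 with mock and 6.87 and 6.14 with estriol for PEAR2. Estriol arrays were lower than mock arrays in each line, but the mock arrays of the Dof2.2 line were themselves 1.12 apart. The changes were -3.44 ± 0.41 (adjusted p = 0.000111) for Dof1.1, -2.75 ± 0.41 (adjusted p = 0.000637) for Dof2.2 and -1.12 ± 0.41 (adjusted p = 0.095) for PEAR2, so that the call was not made in the PEAR2 line. The difference between the Dof1.1 and PEAR2 changes of AT5G39580 did not pass its own test, at -2.33 ± 0.59 (adjusted p = 0.0711). That difference passed with trended robust moderation (0.0449), with the arrays of both lines alone (0.0352) and without either Dof2.2 mock array (0.0365). With array weights, or with the PEAR2 arrays alone, the PEAR2 change passed (adjusted p = 0.0281 and 0.0487).

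Expansin genes that mark root hairs moved the same way. Of 13 listed marker genes, 2 were measured, EXPA7 and EXPA18, which code for wall-loosening expansins of root hair cells. EXPA7 changed by -3.48 ± 0.19 (adjusted p = 5.25e-07) for Dof1.1, -4.38 ± 0.19 (adjusted p = 2e-07) for Dof2.2 and -1.94 ± 0.19 (adjusted p = 5.71e-05) for PEAR2. EXPA18 changed by -3.98 ± 0.15 (adjusted p = 9.97e-08) for Dof1.1, -5.17 ± 0.15 (adjusted p = 4.84e-08) for Dof2.2 and -1.88 ± 0.15 (adjusted p = 2.17e-05) for PEAR2. The log2 of their summed signal ranged from 11.00 to 11.30 on the mock and 7.26 to 7.36 on the estriol arrays of the Dof1.1 line. For Dof2.2 it went from 11.02 to 11.04 down to 6.07 to 6.22, and for PEAR2 from 11.50 to 11.52 down to 9.59 to 9.65. The part of root hair number in the falls of the peroxidases was not tested.

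Peroxidases of the Casparian strip, the lignin band that seals the endodermis, fell in all 3 lines as well. Of 4 listed, AT1G44970, AT4G11290 and AT5G66390 were measured. Over all genes, 8.79% fell in all 3 lines. AT4G11290 is also a known target of UPB1, a transcription factor that represses peroxidases where root cells pass from division to elongation. The Dof1.1 arrays of AT4G11290 read 7.89 and 7.92 with mock and 5.20 and 5.49 with estriol. With Dof2.2 it read 7.79 and 7.60 with mock and 5.21 and 5.11 with estriol, and with PEAR2 8.90 and 8.98 with mock and 6.47 and 6.79 with estriol. Its groups did not overlap in any line. AT4G11290 fell by 2.56 ± 0.16 (adjusted p = 1.58e-06) for Dof1.1, 2.54 ± 0.16 (adjusted p = 1.82e-06) for Dof2.2 and 2.31 ± 0.16 (adjusted p = 8.56e-06) for PEAR2.

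For AT1G44970 the Dof1.1 arrays read 7.55 and 8.04 with mock and 5.52 and 5.80 with estriol. Arrays of Dof2.2 roots read 7.28 and 7.08 with mock and 5.33 and 4.72 with estriol, and of PEAR2 roots 8.13 and 8.39 with mock and 6.44 and 6.36 with estriol. Here too no estriol array reached a mock array of its line. AT1G44970 fell by 2.13 ± 0.23 (adjusted p = 5.8e-05) for Dof1.1, 2.15 ± 0.23 (adjusted p = 6.58e-05) for Dof2.2 and 1.86 ± 0.23 (adjusted p = 0.000328) for PEAR2. PRX72 (AT5G66390), which also takes part in stem lignification, had smaller values for its change in the PEAR2 line. In the Dof1.1 line PRX72 read 11.65 and 12.04 with mock and 8.78 and 9.06 with estriol. It read 11.52 and 11.60 with mock and 8.96 and 7.68 with estriol for Dof2.2, and 11.77 and 11.63 with mock and 10.58 and 10.53 with estriol for PEAR2. The estriol arrays of PRX72 were below its mock arrays in each line, and in the Dof2.2 line they were 1.28 apart. PRX72 fell by 2.92 ± 0.33 (adjusted p = 7.32e-05) for Dof1.1, 3.24 ± 0.33 (adjusted p = 4.36e-05) for Dof2.2 and 1.15 ± 0.33 (adjusted p = 0.037) for PEAR2. The PEAR2 call was lost without any 1 of that line's 4 arrays, with adjusted p between 0.115 and 0.163. Its differences from the PEAR2 change did not pass, at -1.78 ± 0.47 (adjusted p = 0.0807) for the Dof1.1 line and -2.10 ± 0.47 (adjusted p = 0.0611) for the Dof2.2 line. They passed in 3 and 5 of the 22 other fits, with adjusted p down to 0.00684 and 0.00235, both without the first Dof2.2 estriol array.

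The other UPB1 target measured, AT5G17820, fell in all 3 lines. AT5G17820 read 10.49 and 10.28 with mock and 8.43 and 8.0 with estriol in the Dof1.1 line. Those of the Dof2.2 line read 10.51 and 10.43 with mock and 7.85 and 7.43 with estriol, and those of the PEAR2 line 10.48 and 10.58 with mock and 8.91 and 8.94 with estriol. The 2 treatments did not overlap in any line. AT5G17820 fell by 2.17 ± 0.19 (adjusted p = 1.2e-05) for Dof1.1, 2.83 ± 0.19 (adjusted p = 2.48e-06) for Dof2.2 and 1.60 ± 0.19 (adjusted p = 0.000217) for PEAR2. Among 9 listed genes that mark the endodermis or build its Casparian strip, 2 were measured. GSO1, a receptor kinase that keeps the strip continuous, changed by -2.37 ± 0.24 (adjusted p = 3.03e-05) for Dof1.1, -2.40 ± 0.24 (adjusted p = 3.4e-05) for Dof2.2 and -0.81 ± 0.24 (adjusted p = 0.0392) for PEAR2. AT1G61590, a receptor-like kinase gene of the same list, changed by -3.15, -3.09 and -1.50 for Dof1.1, Dof2.2 and PEAR2 and fell in each. The log2 of their summed signal ranged from 10.46 to 10.68 with mock and 7.74 to 8.18 with estriol for Dof1.1, and from 9.58 to 9.97 and 6.87 to 7.31 for Dof2.2. For PEAR2 these ranges were 11.01 to 11.17 and 9.90 to 9.95. The part of endodermal cells in these results was not tested.

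Peroxidases known from lignification of xylem and stem did not move as 1 group. All 7 listed were measured. With Dof1.1, 3 fell and none rose, in the Dof2.2 line 2 rose and 2 fell, and in the PEAR2 line 1 rose and 1 fell. In the same order of lines, 16.2%, 13.6% and 10.4% of all genes fell and 17.8%, 14.8% and 8.33% rose. The only difference between lines called among the 7 was that of AT2G22420 for Dof1.1 minus Dof2.2. For the rest, a call in only some lines was not backed by a called difference between lines. PRX72, described above, was the only 1 of the 7 that fell in each line. PRX52 (AT5G05340), which acts in lignification of stem fibres, rose in the Dof2.2 line. Single arrays of PRX52 read 7.92 and 7.47 with mock and 8.15 and 7.57 with estriol in the Dof1.1 line. Dof2.2 arrays read 5.47 and 6.35 with mock and 9.02 and 7.74 with estriol, and PEAR2 arrays 7.14 and 6.73 with mock and 7.81 and 7.82 with estriol. In the Dof2.2 line both estriol arrays of PRX52 were above both mock arrays, although 1.28 apart, and in the Dof1.1 line the groups overlapped. The changes of PRX52 were 0.17 ± 0.41 (adjusted p = 0.803) for Dof1.1, 2.47 ± 0.41 (adjusted p = 0.00124) for Dof2.2 and 0.88 ± 0.41 (adjusted p = 0.19) for PEAR2. With the PEAR2 arrays alone, its change there passed (adjusted p = 0.0276).

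AT2G22420 rose in the Dof2.2 and PEAR2 lines. The Dof1.1 arrays of AT2G22420 read 6.90 and 7.38 with mock and 6.65 and 6.94 with estriol. Readings were 6.55 and 6.44 with mock and 7.68 and 7.63 with estriol for Dof2.2, and 7.31 and 7.38 with mock and 7.97 and 7.94 with estriol for PEAR2. The groups overlapped in the Dof1.1 line. AT2G22420 changed by -0.34 ± 0.18 (adjusted p = 0.166) for Dof1.1, 1.16 ± 0.18 (adjusted p = 0.000665) for Dof2.2 and 0.61 ± 0.18 (adjusted p = 0.0369) for PEAR2. The PEAR2 call was lost without any 1 of that line's arrays (adjusted p from 0.123 to 0.169). With pairs of arrays as a block, the change in the Dof1.1 line passed as a fall (adjusted p = 0.0496), as it did without the first Dof1.1 mock array (0.0355).

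PRX25 (AT2G41480) and AT4G33420 fell in the Dof1.1 line. For PRX25 the Dof1.1 arrays read 4.89 and 4.78 with mock and 3.66 and 3.61 with estriol. With Dof2.2 it read 4.21 and 4.34 with mock and 4.24 and 3.94 with estriol, and with PEAR2 5.32 and 4.81 with mock and 4.77 and 4.35 with estriol. PRX25 overlapped between treatments in the Dof2.2 line. Its changes were -1.20 ± 0.21 (adjusted p = 0.00122) for Dof1.1, -0.18 ± 0.21 (adjusted p = 0.566) for Dof2.2 and -0.51 ± 0.21 (adjusted p = 0.128) for PEAR2. In the Dof1.1 line AT4G33420 read 12.04 and 12.02 with mock and 10.54 and 10.14 with estriol. Arrays of Dof2.2 roots read 10.76 and 11.58 with mock and 10.61 and 10.89 with estriol, and of PEAR2 roots 12.25 and 11.91 with mock and 11.62 and 11.25 with estriol. AT4G33420 also overlapped in the Dof2.2 line. Its changes were -1.69 ± 0.27 (adjusted p = 0.000757) for Dof1.1, -0.42 ± 0.27 (adjusted p = 0.292) for Dof2.2 and -0.65 ± 0.27 (adjusted p = 0.139) for PEAR2. With pairs of arrays as a block, the PEAR2 changes of both genes passed (adjusted p = 0.0486 for PRX25 and 0.0475 for AT4G33420). Without the first mock array of the Dof2.2 line, AT4G33420 passed there too (adjusted p = 0.0428).

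PRX71 (AT5G64120), another stem lignification peroxidase, fell in the Dof2.2 line. PRX71 read 10.12 and 9.46 with mock and 9.26 and 8.93 with estriol in the Dof1.1 line. It read 10.41 and 9.39 with mock and 8.46 and 8.37 with estriol for Dof2.2, and 12.19 and 12.35 with mock and 11.41 and 11.41 with estriol for PEAR2. The estriol arrays of PRX71 lay below the mock arrays in each line, and the mock arrays of the Dof2.2 line were 1.02 apart. PRX71 changed by -0.69 ± 0.31 (adjusted p = 0.114) for Dof1.1, -1.49 ± 0.31 (adjusted p = 0.00483) for Dof2.2 and -0.86 ± 0.31 (adjusted p = 0.0862) for PEAR2. Its PEAR2 change passed with the PEAR2 arrays alone (adjusted p = 0.0102) and with array weights (0.0206). Without either mock array of the Dof2.2 line, the Dof1.1 and PEAR2 changes passed (adjusted p = 0.0351 and 0.0226). AT5G51890, known from xylem vessels, was called in no line, with changes of -0.64, -0.29 and -0.02 for Dof1.1, Dof2.2 and PEAR2. It passed as a fall in the Dof1.1 line in 6 of the 22 other fits, with adjusted p down to 0.0197 with pairs as a block.

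In each line the largest fall was that of a peroxidase outside these role lists. Single arrays of AT3G01190 read 10.81 and 10.93 with mock and 5.99 and 5.92 with estriol in the Dof1.1 line. Those of the Dof2.2 line read 10.93 and 10.93 with mock and 4.24 and 4.04 with estriol, and those of the PEAR2 line 11.60 and 11.68 with mock and 8.06 and 8.48 with estriol. AT3G01190 was the peroxidase with the largest fall in the Dof2.2 line, and its estriol arrays were far below its mock arrays in each line. AT3G01190 fell by 4.92 ± 0.16 (adjusted p = 7.49e-08) for Dof1.1, 6.79 ± 0.16 (adjusted p = 2.78e-08) for Dof2.2 and 3.37 ± 0.16 (adjusted p = 1.13e-06) for PEAR2. The Dof1.1 arrays of AT2G18980 read 11.14 and 11.43 with mock and 4.98 and 5.87 with estriol. Dof2.2 arrays read 11.06 and 11.09 with mock and 5.58 and 5.48 with estriol, and PEAR2 arrays 11.60 and 11.67 with mock and 8.91 and 9.19 with estriol. This gene had the largest fall of the 54 in the Dof1.1 line. AT2G18980 fell by 5.86 ± 0.25 (adjusted p = 1.6e-07) for Dof1.1, 5.54 ± 0.25 (adjusted p = 2.76e-07) for Dof2.2 and 2.58 ± 0.25 (adjusted p = 6.4e-05) for PEAR2, which is 58.1-fold, 46.7-fold and 6-fold.

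For AT2G39040 the Dof1.1 arrays read 8.67 and 9.61 with mock and 5.0 and 4.54 with estriol. Readings were 9.51 and 9.35 with mock and 4.36 and 4.0 with estriol for Dof2.2, and 9.67 and 9.74 with mock and 5.17 and 5.19 with estriol for PEAR2. AT2G39040 had the largest fall of the 54 in the PEAR2 line. It fell by 4.37 ± 0.28 (adjusted p = 1.6e-06) for Dof1.1, 5.25 ± 0.28 (adjusted p = 6.23e-07) for Dof2.2 and 4.53 ± 0.28 (adjusted p = 3.86e-06) for PEAR2. In the Dof1.1 line AT4G30170 read 8.58 and 8.85 with mock and 4.11 and 4.16 with estriol. With Dof2.2 it read 8.52 and 8.50 with mock and 3.03 and 2.35 with estriol, and with PEAR2 9.57 and 9.65 with mock and 6.46 and 7.08 with estriol. With estriol, AT4G30170 was dim in the Dof2.2 line, meaning that its mean was under the lower quartile of the group's table values, so the size of that fall is less certain. AT4G30170 fell by 4.58 ± 0.25 (adjusted p = 5.8e-07) for Dof1.1, 5.82 ± 0.25 (adjusted p = 2.04e-07) for Dof2.2 and 2.84 ± 0.25 (adjusted p = 3.11e-05) for PEAR2.

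AT5G15180 read 9.16 and 9.64 with mock and 4.42 and 5.10 with estriol in the Dof1.1 line. Arrays of Dof2.2 roots read 9.25 and 9.68 with mock and 3.49 and 4.29 with estriol, and of PEAR2 roots 9.37 and 9.53 with mock and 6.77 and 7.09 with estriol. No estriol array of AT5G15180 came near a mock array. AT5G15180 fell by 4.64 ± 0.31 (adjusted p = 2.26e-06) for Dof1.1, 5.58 ± 0.31 (adjusted p = 8e-07) for Dof2.2 and 2.52 ± 0.31 (adjusted p = 0.000295) for PEAR2. Single arrays of AT1G30870 read 9.25 and 9.05 with mock and 5.62 and 4.99 with estriol in the Dof1.1 line. It read 8.91 and 8.84 with mock and 4.20 and 3.99 with estriol for Dof2.2, and 10.27 and 10.50 with mock and 8.01 and 8.43 with estriol for PEAR2. The falls of AT1G30870 were again smallest in the PEAR2 line. They measured 3.85 ± 0.22 (adjusted p = 9.21e-07) for Dof1.1, 4.78 ± 0.22 (adjusted p = 3.07e-07) for Dof2.2 and 2.17 ± 0.22 (adjusted p = 9.59e-05) for PEAR2.

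A further 8 peroxidases fell in all 3 lines. AT4G37530 changed by -3.13, -3.90 and -2.13 for Dof1.1, Dof2.2 and PEAR2, and its neighbour AT4G37520 by -1.79, -1.83 and -1.48. AT1G14550 changed by -3.15, -3.31 and -2.19, AT3G49960 by -2.58, -3.22 and -1.73 and AT1G34510 by -2.15, -2.64 and -1.43 in the same order. AT2G37130, AT3G28200 and AT2G38380 had smaller falls, with the largest at -1.56 for AT2G37130, -1.30 for AT3G28200 and -1.19 for AT2G38380. AT2G38380 lost its PEAR2 call without either mock array or the second estriol array of that line (adjusted p = 0.0663, 0.0526 and 0.0745). With estriol, AT4G37520 was dim in both the Dof1.1 and the Dof2.2 line, and AT3G28200 in the Dof1.1 line.

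Other falls were called in fewer lines. AT1G68850 changed by -2.62, -2.71 and -0.53, AT2G35380 by -2.02, -2.40 and -0.48, AT5G14130 by -2.36, -2.37 and -0.89 and AT5G47000 by -2.03, -2.39 and -0.44 for Dof1.1, Dof2.2 and PEAR2. These 4 genes did not pass in the PEAR2 line, with adjusted p of 0.604, 0.473, 0.213 and 0.739. Their mock arrays in the Dof2.2 line were far apart. On the first and second of those arrays AT1G68850 read 8.41 and 10.48, AT2G35380 10.05 and 11.34, AT5G14130 7.34 and 9.05, and AT5G47000 3.91 and 6.69. The first array was the lower in each case. The difference between their Dof2.2 and PEAR2 changes was not called, with adjusted p of 0.292, 0.162, 0.391 and 0.482. Without that first array it passed for each of the 4 (adjusted p = 0.0162, 0.0216, 0.0142 and 0.00598). With that line's arrays alone the Dof2.2 calls of AT1G68850 and AT5G47000 were lost (adjusted p = 0.0731 and 0.149). The difference between the Dof1.1 and PEAR2 changes was not called for any of the 4 genes either. With the arrays of both lines alone it passed for AT1G68850, AT2G35380 and AT5G47000 (adjusted p = 0.0104, 0.0152 and 0.0214), but not for AT5G14130. AT5G47000 also lost its calls with pairs of arrays as a block (adjusted p = 0.0834 for Dof1.1 and 0.059 for Dof2.2). It also lost the Dof1.1 call without any 1 of that line's arrays (0.0985 to 0.15), and the Dof2.2 call without the second estriol array (0.124). AT5G14130 passed in the PEAR2 line without either Dof2.2 mock array (adjusted p = 0.0222) and with the PEAR2 arrays alone (0.012).

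AT2G24800 and AT2G34060 fell in the Dof2.2 and PEAR2 lines, by 1.41 and 1.22 for AT2G24800 and by 0.65 and 0.76 for AT2G34060. AT5G64110 fell there by 0.62 and 1.31, and in the Dof1.1 line its change of -0.50 ± 0.20 (adjusted p = 0.078) passed only with pairs as a block (adjusted p = 0.0189). The Dof2.2 call of AT5G64110 was lost in 8 of the 22 other fits, among them those without the first mock or the second estriol array of that line (adjusted p = 0.234 and 0.208), and that after quantile normalization (0.0693). AT2G38390 fell in the Dof1.1 line by 1.02 ± 0.27 (adjusted p = 0.0134), but not without its first mock or second estriol array there (0.0749 and 0.0941), nor with that line's arrays alone (0.0565). In the Dof2.2 line AT2G38390 passed in 3 of the other fits (down to 0.0166). AT3G32980 and AT5G19890 fell in the Dof2.2 line alone by call, by 0.78 ± 0.20 (adjusted p = 0.0147) and 0.81 ± 0.26 (adjusted p = 0.0373). AT3G32980 lost that call without the first or second mock or the first estriol array of the line (0.0588, 0.0568 and 0.0942), and with its arrays alone (0.103). In the PEAR2 line AT3G32980 passed in 5 of the other fits (down to 0.0349). AT5G19890, which was dim in both Dof2.2 groups, lost it in 9 of 21 other fits, with adjusted p up to 0.242 without the first mock array. AT5G19890 passed in the PEAR2 line in 4 of these (down to 0.0181) and in the Dof1.1 line in 2 (0.0221).

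A smaller set of peroxidases rose together in all 3 lines. The Dof1.1 arrays of AT1G71695 read 7.66 and 7.80 with mock and 11.53 and 11.74 with estriol. Those of the Dof2.2 line read 8.19 and 7.84 with mock and 11.42 and 11.62 with estriol, and those of the PEAR2 line 8.76 and 9.23 with mock and 12.41 and 12.51 with estriol. Each estriol array of AT1G71695 was above each mock array of its line by over 3 on the log2 scale. AT1G71695 rose by 3.90 ± 0.19 (adjusted p = 3.58e-07) for Dof1.1, 3.5 ± 0.19 (adjusted p = 7.55e-07) for Dof2.2 and 3.46 ± 0.19 (adjusted p = 2.38e-06) for PEAR2, with the 3 lines close together. For AT4G36430 the Dof1.1 arrays read 9.17 and 8.91 with mock and 11.84 and 11.61 with estriol. Dof2.2 arrays read 7.35 and 7.28 with mock and 12.38 and 11.98 with estriol, and PEAR2 arrays 8.66 and 8.98 with mock and 11.95 and 12.15 with estriol. AT4G36430 had the largest rise of the 54 in the Dof2.2 line. It rose by 2.69 ± 0.19 (adjusted p = 3.1e-06) for Dof1.1, 4.87 ± 0.19 (adjusted p = 1.43e-07) for Dof2.2 and 3.23 ± 0.19 (adjusted p = 2.93e-06) for PEAR2. In the Dof1.1 line AT2G18150 read 7.97 and 8.04 with mock and 10.21 and 10.58 with estriol. Readings were 6.16 and 6.56 with mock and 10.93 and 10.65 with estriol for Dof2.2, and 7.96 and 8.14 with mock and 11.09 and 10.94 with estriol for PEAR2. Its estriol arrays were also clear of its mock arrays in each line. AT2G18150 rose by 2.39 ± 0.19 (adjusted p = 6.8e-06) for Dof1.1, 4.43 ± 0.19 (adjusted p = 2.15e-07) for Dof2.2 and 2.96 ± 0.19 (adjusted p = 4.87e-06) for PEAR2.

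AT5G19880 read 5.41 and 6.09 with mock and 6.40 and 6.81 with estriol in the Dof1.1 line. With Dof2.2 it read 3.09 and 3.11 with mock and 7.21 and 7.08 with estriol, and with PEAR2 5.02 and 5.09 with mock and 7.17 and 6.87 with estriol. AT5G19880 had low mock values in the Dof2.2 line, and its groups did not overlap in any line. It rose by 0.85 ± 0.23 (adjusted p = 0.015) for Dof1.1, 4.04 ± 0.23 (adjusted p = 8.13e-07) for Dof2.2 and 1.97 ± 0.23 (adjusted p = 0.000197) for PEAR2. Its Dof1.1 call was lost without the first mock or second estriol array (adjusted p = 0.111 and 0.112), and with that line's arrays alone (0.0727). Single arrays of AT5G06730 read 6.26 and 5.98 with mock and 6.64 and 7.23 with estriol in the Dof1.1 line. Arrays of Dof2.2 roots read 5.61 and 5.91 with mock and 8.50 and 8.67 with estriol, and of PEAR2 roots 6.25 and 6.28 with mock and 8.16 and 8.45 with estriol. AT5G06730 too was least changed in the Dof1.1 line. It rose by 0.82 ± 0.21 (adjusted p = 0.0143) for Dof1.1, 2.83 ± 0.21 (adjusted p = 5.86e-06) for Dof2.2 and 2.04 ± 0.21 (adjusted p = 0.000106) for PEAR2. Its Dof1.1 call was lost without the second mock or second estriol array (0.0893 and 0.116), and with that line's arrays alone (0.0591).

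The Dof1.1 arrays of AT3G21770 read 11.48 and 11.53 with mock and 12.97 and 13.09 with estriol. It read 11.29 and 11.35 with mock and 12.53 and 12.68 with estriol for Dof2.2, and 11.90 and 12.05 with mock and 13.02 and 13.10 with estriol for PEAR2. AT3G21770 rose by 1.52 ± 0.13 (adjusted p = 1.28e-05) for Dof1.1, 1.28 ± 0.13 (adjusted p = 4.98e-05) for Dof2.2 and 1.08 ± 0.13 (adjusted p = 0.000292) for PEAR2, and its arrays of a group stood close together. For AT4G08780 the Dof1.1 arrays read 7.09 and 8.05 with mock and 8.65 and 9.43 with estriol. Those of the Dof2.2 line read 6.57 and 7.06 with mock and 9.66 and 8.74 with estriol, and those of the PEAR2 line 7.72 and 8.03 with mock and 8.94 and 9.54 with estriol. AT4G08780 had wider pairs of arrays, which still did not overlap between treatments. It rose by 1.47 ± 0.41 (adjusted p = 0.0192) for Dof1.1, 2.38 ± 0.41 (adjusted p = 0.00148) for Dof2.2 and 1.36 ± 0.41 (adjusted p = 0.0436) for PEAR2. The Dof1.1 call of AT4G08780 was lost without the first mock or second estriol array (0.15 and 0.14), and the PEAR2 call without any 1 of that line's arrays (0.0662 to 0.232). In the Dof1.1 line Prx37 read 9.39 and 9.49 with mock and 11.05 and 10.96 with estriol. Dof2.2 arrays read 9.61 and 8.70 with mock and 10.74 and 10.17 with estriol, and PEAR2 arrays 10.54 and 10.57 with mock and 10.77 and 11.06 with estriol. Prx37 (AT4G08770), the neighbour of AT4G08780, rose in both the Dof1.1 and the Dof2.2 line. Its changes were 1.56 ± 0.28 (adjusted p = 0.00153) for Dof1.1, 1.30 ± 0.28 (adjusted p = 0.00561) for Dof2.2 and 0.36 ± 0.28 (adjusted p = 0.449) for PEAR2. In the Dof2.2 line it did not pass with that line's arrays alone (0.0765).

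AT5G40150 also rose in all 3 lines, by 1.30 ± 0.17 (adjusted p = 0.000165) for Dof1.1, 0.66 ± 0.17 (adjusted p = 0.0136) for Dof2.2 and 1.03 ± 0.17 (adjusted p = 0.00153) for PEAR2, from mock levels that were dim in each line. Its Dof2.2 call was lost without the first mock or second estriol array (adjusted p = 0.0607 and 0.0765).

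**Figure D3:**
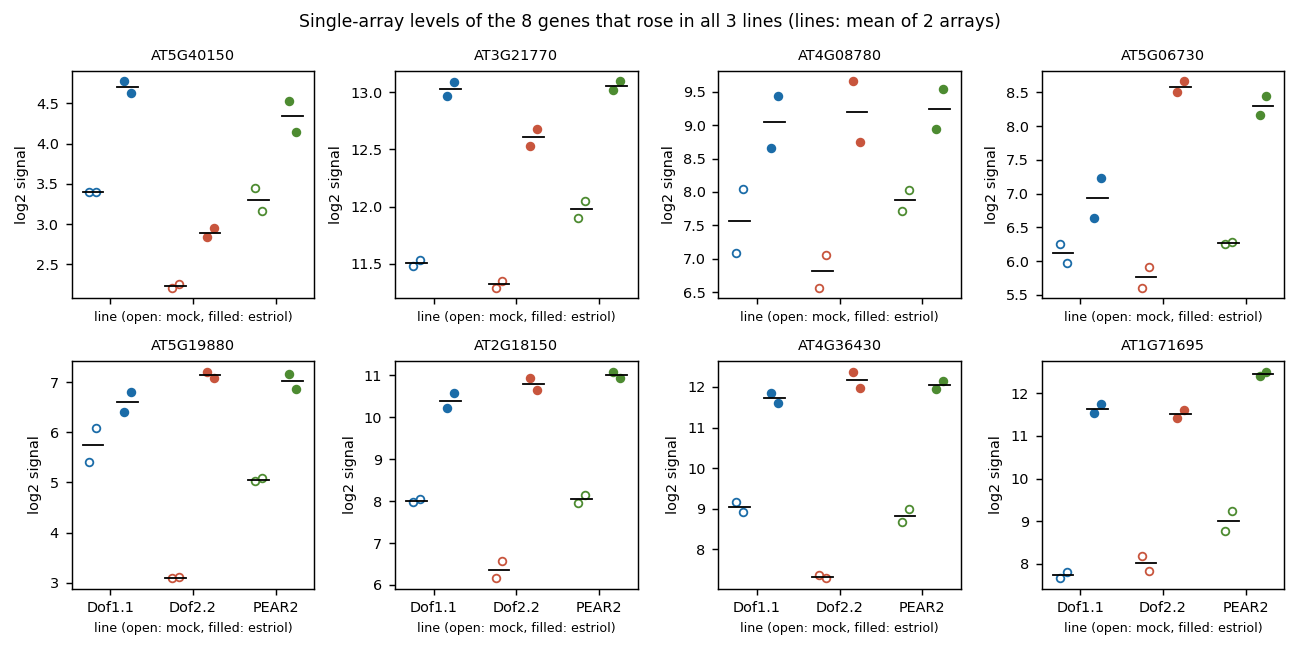
Log2 signal (vertical axis, a scale of its own for each gene) of the 8 peroxidases that rose in all 3 lines, on each mock array (open) and estriol array (filled) in the order Dof1.1, Dof2.2, PEAR2; short black lines are means of 2 arrays. Filled points lie above the open points in every line. The mock points of every gene except AT1G71695 are lowest in the Dof2.2 line, but these are deposited values, and that line also had the lowest array medians (5.41 to 5.58).

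Levels of different lines can be set side by side only with caution, since array medians of the deposited values ran from 5.94 to 6.16 for Dof1.1, 5.41 to 5.58 for Dof2.2 and 6.48 to 6.57 for PEAR2. After quantile normalization of all 12 arrays, the mean mock level of AT5G19880 was 5.63 for Dof1.1, 3.62 for Dof2.2 and 4.45 for PEAR2. With estriol the levels of AT5G19880 were 6.64, 7.60 and 6.57. The mock means of AT4G36430 were 9.03, 7.78 and 8.42, and those of AT2G18150 7.99, 6.82 and 7.62, in the same order of lines. Of the 8 shared risers, 5 had their lowest normalized mock level in the Dof2.2 line, which 33.2% of all 1002 genes that rose in all 3 lines did.

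The difference between lines was tested as the change of 1 line minus that of another. The 3 differences share arrays with each other. The Dof1.1 change was higher than the Dof2.2 change for 1 peroxidase and lower for 5, where 0.949% and 0.586% of all genes were. The Dof1.1 change was higher than the PEAR2 change for none and lower for 5, where 1.24% and 1.67% of all genes were. The Dof2.2 change was higher than the PEAR2 change for 3 and lower for 7, where 0.302% and 1.36% of all genes were. Altogether 12 peroxidases differed in at least 1 of these tests, of which 7 fell and 4 rose in all 3 lines.

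The falls that differed were weaker in the PEAR2 line. AT3G01190 differed in each test, at 1.88 ± 0.23 (adjusted p = 0.00238) for Dof1.1 minus Dof2.2, -1.54 ± 0.23 (adjusted p = 0.00763) for Dof1.1 minus PEAR2 and -3.42 ± 0.23 (adjusted p = 9.58e-05) for Dof2.2 minus PEAR2. For AT2G18980, the Dof1.1 and Dof2.2 changes lay below the PEAR2 change, at -3.27 ± 0.36 (adjusted p = 0.00164) and -2.96 ± 0.36 (adjusted p = 0.00351). AT1G30870, AT4G30170 and AT5G15180 were called in the same tests, and AT4G26010 and AT4G37530 between the Dof2.2 and PEAR2 lines. The Dof1.1 minus PEAR2 calls of AT1G30870, AT4G30170 and AT5G15180 were lost in 6, 7 and 8 of the 22 other fits, with adjusted p up to 0.101, 0.114 and 0.126 without the first PEAR2 mock array. The call of AT4G26010 was lost in 13 (up to 0.182), quantile normalization (0.0698) and the arrays of both lines alone (0.062) among them, and that of AT4G37530 in 1, without the first PEAR2 mock array (0.0578). AT2G39040, with the largest fall in the PEAR2 line, did not pass, at 0.88 ± 0.39 (adjusted p = 0.452), 0.16 ± 0.39 (adjusted p = 0.92) and -0.72 ± 0.39 (adjusted p = 0.554).

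The rises that differed were stronger in the Dof2.2 line. AT5G19880 differed by -3.19 ± 0.32 (adjusted p = 0.000712) for Dof1.1 minus Dof2.2 and by 2.08 ± 0.32 (adjusted p = 0.0106) for Dof2.2 minus PEAR2. AT4G36430 and AT2G18150 were called in the same tests, and AT5G06730 and AT2G22420 in Dof1.1 minus Dof2.2. The AT2G22420 call was lost with the arrays of both lines alone (adjusted p = 0.0703) and without the first Dof1.1 estriol array (0.0681), and the AT5G06730 call with pairs as a block (0.0539). For Dof1.1 minus PEAR2, AT5G06730 and AT2G22420 passed in 3 of the 22 other fits each, and AT5G19880 in 1. The Dof2.2 minus PEAR2 call of AT5G19880 was lost without either PEAR2 mock or the second PEAR2 estriol array (0.0517, 0.0506 and 0.0575), and that of AT2G18150 in 9 of the other fits (up to 0.113). After quantile normalization the Dof2.2 minus PEAR2 differences of AT4G36430 and AT2G18150 did not pass (adjusted p = 0.0708 and 0.0717). The difference of AT4G36430 was also lost without the second PEAR2 mock or the first PEAR2 estriol array (0.0669 and 0.0658). Besides the transgene, the Dof1.1 line differs from the others in its background, and these cannot be told apart.

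**Figure D4:**
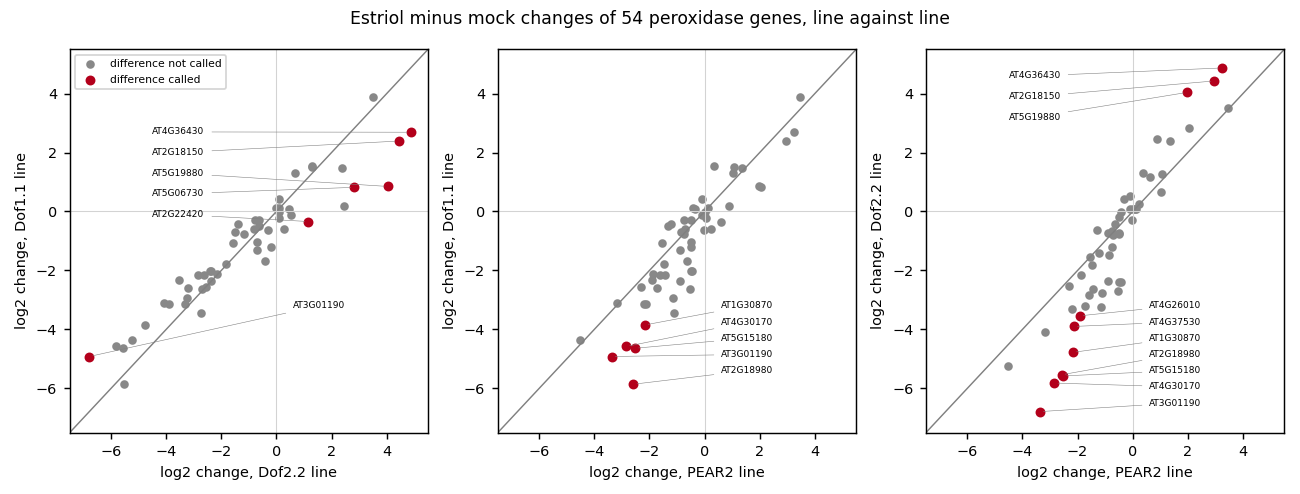
Change of each of the 54 peroxidases (log2) in 1 line against that in another, for the 3 pairs of lines, with the diagonal of equal change; named red points passed the test of the difference. In the right panel 7 named falls lie below the diagonal, nearer 0 in the PEAR2 than in the Dof2.2 line, and 3 named rises lie above it.

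Among the 20 peroxidases that fell in all 3 lines, 16 changed least in the PEAR2 line (80%), which 77% of all 1454 genes that fell in all 3 lines did. The largest change was in the Dof2.2 line for 17 of them (85%), against 46.5% of those genes. The median change of the 20 was -2.75 for Dof1.1, -3.28 for Dof2.2 and -2.03 for PEAR2, and over all 1454 genes it was -1.99, -1.87 and -1.34. Of the 8 shared risers, 5 rose most in the Dof2.2 line (62.5%), against 32.4% of the 1002 genes.

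Peroxidase loci often lie side by side, and 7 measured pairs are adjacent in the TAIR10.1 annotation. AT4G37520 and AT4G37530 fell together in all 3 lines, and AT5G58390 and AT5G58400 were called in no line and were dim in each group. AT5G19880 and AT5G19890 were called in opposite directions in the Dof2.2 line, with changes of 4.04 and -0.81. AT5G19890 was dim in both Dof2.2 groups, and its call there was lost in 9 of 21 other fits. AT5G64100, AT5G64110 and AT5G64120 follow each other, and AT5G64100 fell by 3.09, 4.09 and 3.17 while the changes of AT5G64110 lay between -0.50 and -1.31. Near-identical sequences can share signal on an array, and this was not analysed here.

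Calls were made in no line for 9 peroxidases, where 59.1% of all genes had none. Of the 9, AT1G24110, AT3G03670, AT3G17070, AT5G58390 and AT5G58400 were dim in each of the 6 groups. PRXR1 (AT4G21960) was bright, and read 12.14 and 12.21 with mock and 12.27 and 12.30 with estriol in the Dof1.1 line. Its changes of 0.11, 0.09 and 0.12 had 95% intervals of -0.18 to 0.40 for Dof1.1, -0.20 to 0.37 for Dof2.2 and -0.16 to 0.41 for PEAR2. AT4G17690 changed by 0.07, 0.44 and -0.33, and AT1G49570, whose estriol arrays in the Dof2.2 line read 6.49 and 4.59, by -0.59, 0.27 and 0.23.

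Genes that work beside peroxidases in the wall were examined in fixed lists, most of which were measured only in part. Extensins, the wall proteins that peroxidases cross-link, fell with them: of 7 measured among 16, 6 fell with Dof1.1, 6 with Dof2.2 and 5 with PEAR2, where 16.2%, 13.6% and 10.4% of all genes fell, and none rose. AT4G08400 fell by 2.06 ± 0.37 (adjusted p = 0.00158) for Dof1.1, 2.38 ± 0.37 (adjusted p = 0.000736) for Dof2.2 and 1.22 ± 0.37 (adjusted p = 0.0437) for PEAR2. AT5G06630 changed by -1.66, -2.02 and -1.38, AT1G23720 by -1.77, -1.70 and -1.30, HRGP1 by -1.46, -1.41 and -1.36 and AT3G54580 by -1.03, -1.10 and -0.73 for Dof1.1, Dof2.2 and PEAR2, and each of them fell in every line. AT5G19810 fell in the Dof2.2 line by 1.29 ± 0.27 (adjusted p = 0.00443). AT1G26250 fell in the Dof1.1 line by 0.85 ± 0.27 (adjusted p = 0.0309), from a mean of 2.30 with mock to 1.44 with estriol, and was dim in both groups.

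NADPH oxidases make the superoxide from which hydrogen peroxide arises, and both measured of 10 fell in each line. Over all genes, 8.79% fell in all 3 lines. AT4G25090 fell by 3.69 ± 0.41 (adjusted p = 6.99e-05) for Dof1.1, 4.58 ± 0.41 (adjusted p = 1.9e-05) for Dof2.2 and 2.37 ± 0.41 (adjusted p = 0.00267) for PEAR2. AT4G11230 changed by -0.58, -1.72 and -0.92. Laccases, which oxidise lignin precursors with oxygen, had 2 of 17 measured. LAC16 fell by 3.54 ± 0.39 (adjusted p = 6.32e-05) for Dof1.1, 3.04 ± 0.39 (adjusted p = 0.000217) for Dof2.2 and 1.67 ± 0.39 (adjusted p = 0.0141) for PEAR2, and AT5G01050 fell in each line from levels that were dim throughout.

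Enzymes that make lignin precursors had 2 of 19 measured, which fell in the Dof1.1 line: CCR2 by 1.28 ± 0.43 (adjusted p = 0.0418) and HCT by 0.66 ± 0.15 (adjusted p = 0.00588). In the Dof2.2 and PEAR2 lines CCR2 changed by 0.31 and 0.28, and HCT by -0.09 and -0.10, without passing. The differences of the Dof1.1 change from the Dof2.2 and PEAR2 changes were not called. Their adjusted p were 0.343 and 0.242 for CCR2 and 0.317 and 0.219 for HCT. The Dof1.1 estriol arrays of CCR2 read 9.84 and 8.64. Over all genes, 16.2% fell in the Dof1.1 line. Ascorbate peroxidases, a different class of peroxidase inside the cell, had TAPX and SAPX measured of a list of 18 with catalases and superoxide dismutases. TAPX changed by 0.16, 0.04 and -0.07 and SAPX by -0.36, -0.30 and -0.45, and neither passed in any line. Of 12 genes of photosynthesis listed as shoot markers, LHB1B2 was measured and passed in no line, and no listed marker of xylem, phloem or root cap was measured.

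**Figure D5:**
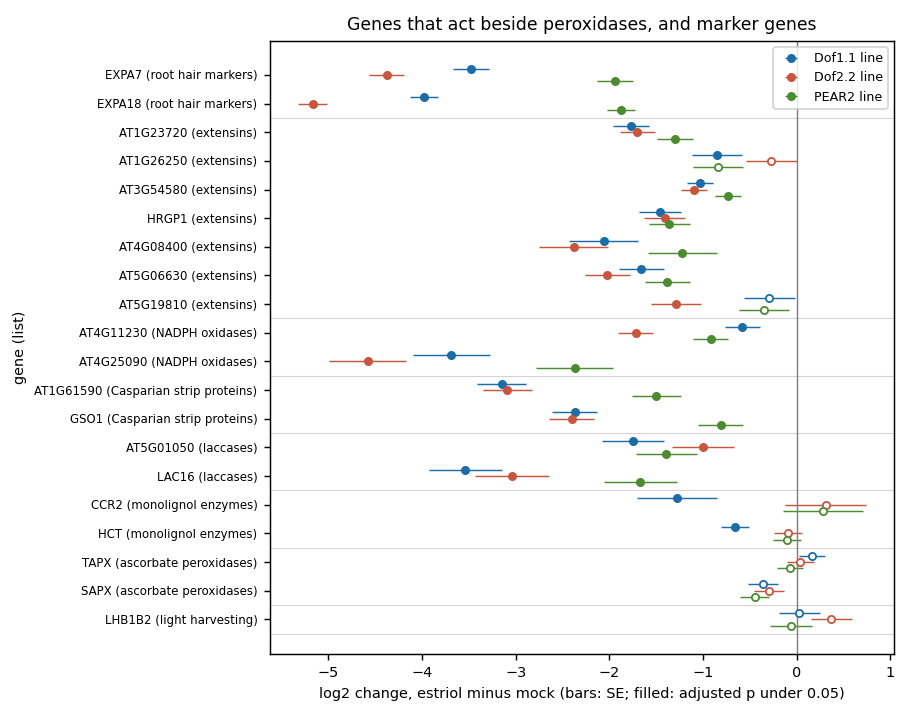
Change with estriol (log2, horizontal axis, bars are standard errors of the model, 2 arrays a group) of measured genes of the lists of root hair markers, extensins, NADPH oxidases, Casparian strip proteins, laccases, monolignol enzymes, ascorbate peroxidases and light harvesting, in the 3 lines; filled points passed the threshold of 0.05. The root hair expansins reach -5.17 (EXPA18, Dof2.2 line), while TAPX, SAPX and LHB1B2 have unfilled points near 0.

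The spread between the 2 arrays of a group was uneven. The arrays were more than 1 apart on the log2 scale for 7 peroxidases in the Dof2.2 mock group, where 3.11% of all genes were. They were so for 4 in the Dof2.2 estriol group and 1 in the PEAR2 estriol group, where 2.32% and 1.06% of all genes were, and for none in the other groups. The 7 were AT1G68850, AT2G35380, AT5G14130, AT5G39580, AT5G47000, AT5G64100 and PRX71, and the first array was the higher for AT5G39580, AT5G64100 and PRX71 and the lower for the others. Between 6 and 11 of the 54 peroxidases were dim in a group, where 29.2% to 29.6% of all genes were.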

How the data were processed

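The deposited values are log2 signals of 12 one-colour arrays, made with RMA per the submitters' processing notes; RNA of entire roots was labelled with biotin per the labels' protocols. Software and version: not given in the sources used here. The array medians differed more between lines than within them, so the lines may have been normalized separately, and changes were taken within a line.

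The table had 28583 probe sets, of which 16722 named 1 gene in the probe annotation and 759 several. Names were taken from the TAIR10.1 annotation through Entrez identifiers for 16574 probe sets and by name for 146, and 2 kept their own. Where a gene had several probe sets the highest mean was kept, which left 16548 genes. The files name no genome build, so no coordinates are given, and promoter and protein sequences were not analysed here.

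Tests used limma 3.58.1 in R 4.3.3 with 6 group means over 12 arrays (6 residual and 3.94 prior degrees of freedom, prior SD 0.19), two-sided, with Benjamini-Hochberg adjustment over all genes of a comparison and a threshold of 0.05. Residual spread is shared by all groups. The fit was tested on simulated data. A group was called dim for a gene if its mean was under percentile 25 of that group's values.

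The peroxidases, gene lists and tests were chosen with earlier results of these data known. By the rule for naming, single arrays are given for called members of the role lists, for the 6 largest rises and 6 largest falls of each line without overlap between treatments, and for the 5 smallest p of each difference between lines; list genes are named where they passed, at most 6 a list, and unpassed genes of lists with few measured members were added after their values were seen.

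Replicate numbers come from the sample titles. Deviations of equally numbered mock and estriol arrays had a correlation of 0.318 for Dof1.1, 0.168 for Dof2.2 and 0.127 for PEAR2, and between lines at -0.083 to 0.114, so numbers were treated as pairing arrays within a line in an alternative. Other alternatives were quantile normalization, array weights, dropping a share of 0.25 of genes, those of lowest mean, trended and robust moderation, fits of the compared lines alone, centring on percentile 75, a block by number over all lines, all probe sets, the lowest-mean probe set, a fold minimum of 2, and leaving out each array in turn.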

Additional observations from a re-analysis of the deposited data

Results flagged for a closer look

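The change with estriol differed between lines, by a test of the difference itself, in 21 cases over 12 peroxidases. Dof1.1 and Dof2.2 roots differed in 6 of them. The test of Dof1.1 minus Dof2.2 gave AT2G18150 at -2.04 (SE 0.27, adjusted p = 0.00371, line changes 2.39 and 4.43) and AT2G22420 at -1.50 (SE 0.25, adjusted p = 0.0152, line changes -0.34 and 1.16). Also differing were AT3G01190 at 1.88 (SE 0.23, adjusted p = 0.00238, line changes -4.92 and -6.79) and AT4G36430 at -2.18 (SE 0.27, adjusted p = 0.00238, line changes 2.69 and 4.87). The same test gave AT5G06730 at -2.01 (SE 0.30, adjusted p = 0.00898, line changes 0.82 and 2.83) and AT5G19880 at -3.19 (SE 0.32, adjusted p = 0.000712, line changes 0.85 and 4.04).

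Between the Dof1.1 and PEAR2 lines 5 falls differed, each larger in the Dof1.1 line. The test of Dof1.1 minus PEAR2 gave AT1G30870 at -1.68 (SE 0.32, adjusted p = 0.0223, line changes -3.85 and -2.17) and AT2G18980 at -3.27 (SE 0.36, adjusted p = 0.00164, line changes -5.86 and -2.58). Also differing were AT3G01190 at -1.54 (SE 0.23, adjusted p = 0.00763, line changes -4.92 and -3.37) and AT4G30170 at -1.74 (SE 0.35, adjusted p = 0.0293, line changes -4.58 and -2.84). The same test gave AT5G15180 at -2.12 (SE 0.44, adjusted p = 0.0335, line changes -4.64 and -2.52).

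Between the Dof2.2 and PEAR2 lines 10 differed, 7 of them falls and 3 of them rises, each larger in the Dof2.2 line. The test of Dof2.2 minus PEAR2 gave AT1G30870 at -2.62 (SE 0.32, adjusted p = 0.00351, line changes -4.78 and -2.17) and AT2G18150 at 1.47 (SE 0.27, adjusted p = 0.0255, line changes 4.43 and 2.96). Also differing were AT2G18980 at -2.96 (SE 0.36, adjusted p = 0.00351, line changes -5.54 and -2.58) and AT3G01190 at -3.42 (SE 0.23, adjusted p = 9.58e-05, line changes -6.79 and -3.37). The same test gave AT4G26010 at -1.62 (SE 0.33, adjusted p = 0.0417, line changes -3.54 and -1.92) and AT4G30170 at -2.98 (SE 0.35, adjusted p = 0.00301, line changes -5.82 and -2.84). Also differing were AT4G36430 at 1.64 (SE 0.27, adjusted p = 0.0145, line changes 4.87 and 3.23) and AT4G37530 at -1.77 (SE 0.27, adjusted p = 0.00965, line changes -3.90 and -2.13). The same test gave AT5G15180 at -3.06 (SE 0.44, adjusted p = 0.00754, line changes -5.58 and -2.52) and AT5G19880 at 2.08 (SE 0.32, adjusted p = 0.0106, line changes 4.04 and 1.97).

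No group had 4 or more arrays, so single outlying arrays were not tested. Causes of these differences were not tested.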

How the results depend on the processing

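Among changes of the peroxidases within a line, 32 of 37 calls in the Dof1.1, 35 of 42 in the Dof2.2 and 28 of 32 in the PEAR2 line held in each of the 22 other fits that tested them, as did 4 of 6, 2 of 5 and 5 of 10 differences between lines (Dof1.1 minus Dof2.2, Dof1.1 minus PEAR2, Dof2.2 minus PEAR2). Of these, 31, 33 and 26 changes and all the differences were at least 2-fold. No called change reversed. Neither scaling moved the median change of all genes by over 0.1. Not every fit could move a peroxidase. Each had a single probe set, so fits with all probe sets or the lowest-mean probe set used the same values for it and changed no call. Leaving out an array of another line left a change within a line as it was and altered only the shared spread and the adjustment.

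Leaving out each array in turn gave 6 to 9 rises and 27 to 31 falls for Dof1.1, 10 to 11 and 28 to 32 for Dof2.2, and 7 to 9 and 21 to 26 for PEAR2. Higher and lower differences ranged from 1 to 2 and 4 to 6 for Dof1.1 minus Dof2.2, 0 to 0 and 2 to 9 for Dof1.1 minus PEAR2, and 0 to 3 and 5 to 10 for Dof2.2 minus PEAR2. The 5 lower for Dof1.1 minus PEAR2 became 2 without the second Dof1.1 mock, either PEAR2 mock or the second PEAR2 estriol array, 3 without the first Dof1.1 estriol array, and 9 without either Dof2.2 mock array. The 3 higher for Dof2.2 minus PEAR2 became 1 without the first PEAR2 mock or either PEAR2 estriol array, and 0 without the second PEAR2 mock array. The 1 higher for Dof1.1 minus Dof2.2 became 2 without the second Dof2.2 mock array.

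Quantile normalization left 1 higher for Dof2.2 minus PEAR2. For Dof1.1 minus PEAR2, trended robust moderation gave 9 lower, the arrays of those lines alone 1 higher and 10 lower, and pairing as a replicate block 1 higher. The causes were not tested. With that block, which leaves 3 residual degrees of freedom, AT5G06730 (Dof1.1 minus Dof2.2, adjusted p = 0.0539), AT2G18150 and AT4G26010 (Dof2.2 minus PEAR2, 0.0857 and 0.0982) lost their call, and AT2G22420 and Prx37 gained one (Dof1.1 minus PEAR2, 0.0416 and 0.0443). This replicate block changed no other call beside those given with each gene. A block by number over all lines lost the Dof2.2 minus PEAR2 call of AT4G26010 (0.0517), gave one to AT5G17820 (0.0456) and passed AT5G51890 as a fall in the Dof1.1 line (0.0465). AT5G17820 also gained that call without the genes of lowest mean (0.039), with trended robust moderation (0.014) and with array weights (0.0328). AT3G49960 gained a Dof2.2 minus PEAR2 call in the same fits (0.039, 0.0116 and 0.0291) and with centring on percentile 75 (0.0411). With 2 arrays a group, small changes and dim genes are the least certain.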
